A study of Mus musculus with 2 samples.

Results

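Levels of 10 genes of the marrow stroma and its matrix were read on Illumina bead arrays of mouse bone marrow leukaemic stem cells: Cxcl12, Bgn, Dcn, Col1a1, Col1a2, Col3a1, Sparc, Ibsp, Ebf3 and Lepr. They were the 10 of 19057 named genes given by a fixed list of symbols, chosen with earlier results of these data known. The symbols were matched through the platform annotation, and the genes held 24 of the 45281 probes. Both samples were MLL-AF9 leukaemias, driven by a fused Kmt2a (MLL) and Mllt3 (AF9) gene, on a C57BL/6J background at 9 weeks of age. The sample labelled PirBTM was set against the sample labelled wild type, with 1 array of each. The labels do not say what PirBTM changes in Pirb, which encodes an inhibitory receptor of leukocytes, how the cells were sorted or whether animals were pooled. With 1 array per group there was no spread between replicates and no test, so every difference below is between these 2 samples.

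Stromal reticular cells, osteoblasts and endothelium are among the non-haematopoietic cells of the marrow. The reticular cells secrete CXCL12, the chemokine that holds haematopoietic stem cells and B cell precursors in the marrow through the receptor CXCR4, and many of them carry the leptin receptor and depend on the transcription factor EBF3. Osteoblasts and fibroblasts lay down type I and type III collagen, with the proteoglycans biglycan and decorin on the fibrils and SPARC and bone sialoprotein (Ibsp) as matrix and mineral-binding proteins. Leukaemic and normal blood cells make little of most of these products, so the genes are commonly read as markers of stroma.

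In PirBTM, 7 of the 10 genes were detected, and in wild type 2, Cxcl12 and Bgn. Of all 19057 named genes, 47.2% were detected in PirBTM and 43.5% in wild type. A probe counted as detected when its detection p-value, which sets its signal against the negative control beads, lay under 0.01, and a gene was read by its brightest probe. The 5 genes detected in PirBTM only were Dcn, Col1a1, Sparc, Ibsp and Ebf3, 5 of the 7, where 12.1% of the 9432 genes detected on any array were so. By probe, 14 of 24 were detected in PirBTM and 2 of 24 in wild type, where 36.2% of all probes were detected in PirBTM and 33.4% in wild type. Col1a2, Col3a1 and Lepr were not detected on either array.

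**Figure D1:**
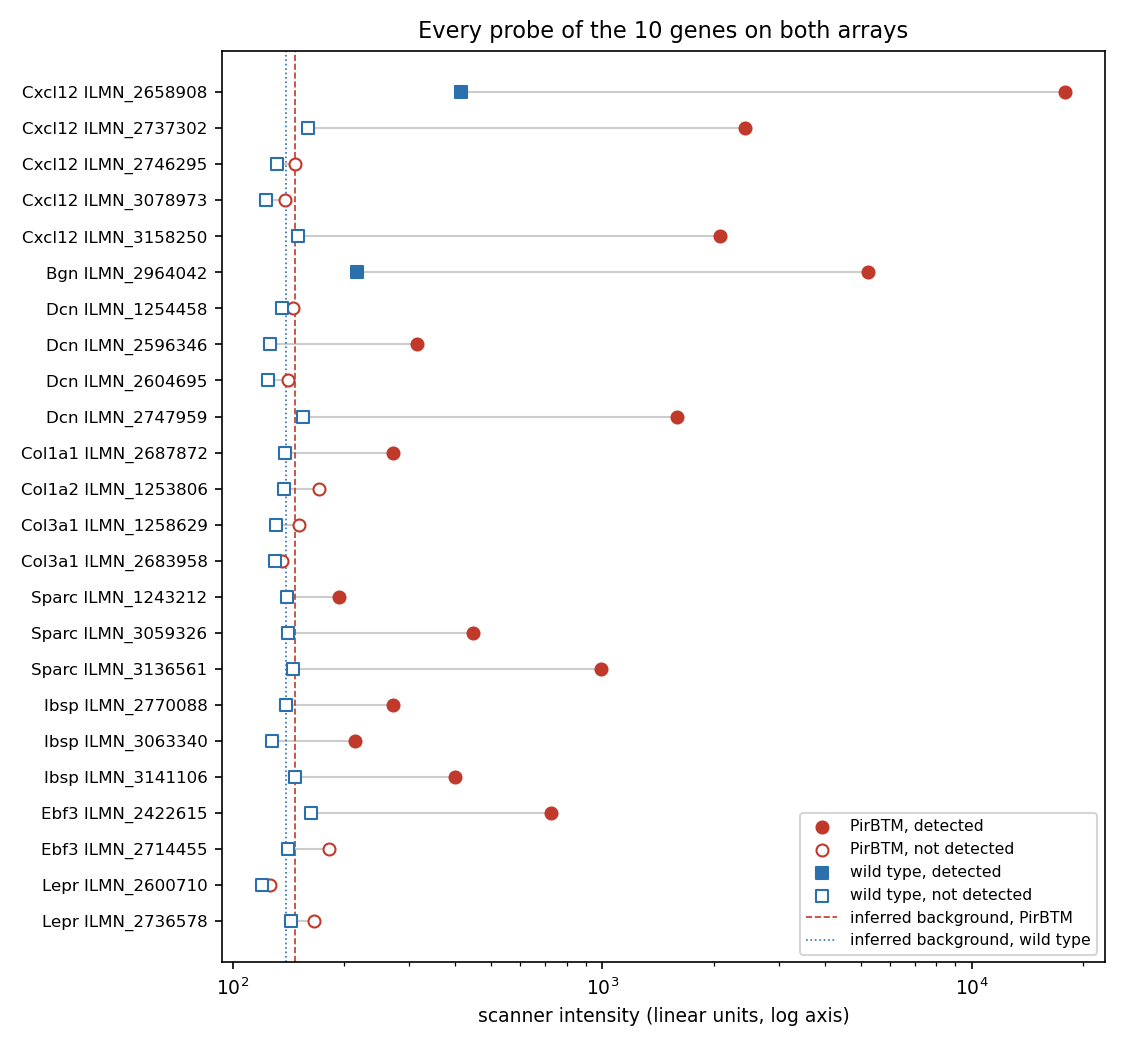
Scanner intensity (linear units on a log axis) of all 24 probes of the 10 genes, circles for PirBTM and squares for wild type, filled where detected. Vertical lines mark the background level inferred for each array, 147.2 for PirBTM and 139.3 for wild type. Most squares sit on the background lines, and 14 circles are filled.

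For a gene detected on both arrays the log2 ratio is PirBTM minus wild type, after background correction and quantile normalization. For a gene detected in PirBTM only, "at least N-fold" is a lower bound: the wild-type value was replaced by the dimmest detected probe of that array (5.97 on the log2 scale) unless its own value was higher. For a gene detected in wild type only, the PirBTM value was replaced in the same way (floor 5.68). By ratio or bound, 6 of the 7 detected genes were higher in PirBTM by 2-fold or more, 0 were lower by as much, and Col1a1 had a bound under 2-fold. Over all 9432 detected genes, 12.8% passed 2-fold upward and 9.63% downward. These background shares were 16.6% upward and 5.32% downward with cyclic loess, 15.1% upward and 6.68% downward with median scaling, and 8.48% upward and 3.92% downward without background correction. The 8-fold mark was passed by Cxcl12, Bgn, Dcn, Sparc and Ebf3, and by 2.39% of all detected genes. As 5 of the 7 genes entered these counts only through PirBTM, the array where they are bright, their direction was fixed by the detection filter, and nothing is read from the counts against those shares. With no filter, the median log2 ratio of all 10 genes was 3.21, against -0.05 for all 19057 named genes, wild-type values at background included as measured. Of the 19057 genes, 9625 were detected on neither array. The list was chosen with earlier results of these data known, so its median describes the genes and gives no independent support. Over the detected genes alone the median of all genes was -0.15, and other scalings moved it to 0.10 (cyclic loess) and -0.02 (median scaling), so log2 ratios this near 0 have no settled sign. In bulk RNA, more cells of a type and more RNA per cell cannot be told apart. The measuring SD of a single probe's log2 ratio was 0.30, taken from how far paired probes of 2944 genes disagreed; it leaves out differences between animals, sorts and RNA preparations.

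The sequences around the transcription starts of 3 genes are shown: Cxcl12 and Bgn, the only 2 of the 10 detected on both arrays and so the only 2 with a ratio, and Ibsp, a gene of mineralizing cells detected in PirBTM only. Each window runs from 250 bases before to 50 bases after the start in RefSeq's GRCm38.p6 table, 5′ to 3′ on the gene's strand. Capitals mark 3 motifs on either strand: the GC box, which was searched as GGGCGG; the CCAAT box, which was searched by the letters of its name; and the TATA motif, which was searched as TATAA. GC boxes that overlap were counted separately.
Cxcl12, chr6:117168285-117168584, plus strand: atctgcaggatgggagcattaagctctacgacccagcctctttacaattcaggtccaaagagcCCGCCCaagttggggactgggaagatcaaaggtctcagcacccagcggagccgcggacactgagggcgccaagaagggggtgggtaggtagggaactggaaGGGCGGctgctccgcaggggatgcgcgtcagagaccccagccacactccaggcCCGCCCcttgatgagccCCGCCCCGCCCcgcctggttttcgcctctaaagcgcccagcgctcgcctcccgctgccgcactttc
Bgn, chrX:73483351-73483650, plus strand: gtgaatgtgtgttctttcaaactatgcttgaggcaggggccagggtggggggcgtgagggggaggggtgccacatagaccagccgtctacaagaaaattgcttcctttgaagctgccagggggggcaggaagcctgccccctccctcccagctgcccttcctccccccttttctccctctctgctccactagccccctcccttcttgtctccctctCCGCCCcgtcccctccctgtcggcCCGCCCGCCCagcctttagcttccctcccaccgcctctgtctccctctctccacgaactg
Ibsp, chr5:104299037-104299336, plus strand: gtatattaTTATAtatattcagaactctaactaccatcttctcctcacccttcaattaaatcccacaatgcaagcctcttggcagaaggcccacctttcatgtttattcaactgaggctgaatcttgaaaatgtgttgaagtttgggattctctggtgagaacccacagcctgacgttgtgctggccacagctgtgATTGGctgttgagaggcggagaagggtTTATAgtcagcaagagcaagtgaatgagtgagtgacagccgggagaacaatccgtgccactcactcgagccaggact
The Cxcl12 window held 5 GC boxes and the Bgn window 3, with 0 CCAAT boxes and 0 TATA motifs in each. The Ibsp window held 0 GC boxes, 1 CCAAT box and 2 TATA motifs. Of 32544 different windows of this length, 35.9% held a GC box, 37.4% a CCAAT box and 24.8% a TATA motif. These matches describe the letters only, and 8 of the 10 genes had a window.

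Cxcl12 encodes the chemokine itself, and it had 5 probes annotated to 3 transcript records. Its brightest probe, ILMN_2658908, read 17785.5 in PirBTM and 413.3 in wild type in linear scanner units. After normalization these were log2 intensities of 14.05 in PirBTM and 8.39 in wild type, a log2 ratio of 5.66 or 50.7-fold, the 9th highest ratio among the 7858 genes detected on both arrays. Its probe ILMN_2737302 read 2427.3 in PirBTM and 159.8 in wild type, and ILMN_3158250 read 2084.7 in PirBTM and 150.3 in wild type. Both were detected in PirBTM only, with bounds of at least 34.0-fold and at least 28.8-fold. The remaining probes were dim on both arrays: ILMN_2746295 read 147.0 in PirBTM and 131.5 in wild type, and ILMN_3078973 read 138.5 in PirBTM and 122.9 in wild type. All 3 probes that gave a signal were thus brighter in PirBTM, and the 2 dim ones gave no usable ratio. No source used here says which part of the transcript each probe covers.

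Bgn encodes biglycan, a small leucine-rich proteoglycan of bone and connective tissue, and its single probe read 5227.1 in PirBTM and 216.5 in wild type. The log2 intensities were 12.23 in PirBTM and 6.82 in wild type, a log2 ratio of 5.41 or 42.4-fold and the 12th highest among genes detected on both arrays. Without background correction the log2 ratio was 4.35. Dcn encodes decorin, a relative of biglycan that binds collagen fibrils, and it had 4 probes. The brightest, ILMN_2747959, read 1586.3 in PirBTM and 154.9 in wild type (detection p-value 0.104 in wild type), which gave at least 21.3-fold. A second probe read 316.0 in PirBTM and 126.5 in wild type, at least 2.51-fold, and the other two were not detected on either array, at 145.4 and 140.7 in PirBTM and 135.8 and 124.6 in wild type. Decorin was therefore seen by 2 of its 4 probes, both in PirBTM only. The bound by the brightest probe, 4.41 on the log2 scale, was 2.94 without background correction, and the mean of the detected probes gave 2.87.

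Type I and type III collagen are the fibril-forming proteins of bone and reticular matrix, and of their 3 genes only Col1a1 was detected. Col1a1, the first chain of type I collagen, read 271.5 in PirBTM and 138.4 in wild type, which gave at least 1.90-fold. Col1a2, the partner chain of the same fibre, read 171.1 in PirBTM and 137.8 in wild type and was not detected on either array (detection p-value 0.0716 in PirBTM and 0.466 in wild type). The probes of Col3a1, type III collagen, read 151.1 and 136.3 in PirBTM and 131.1 and 130.5 in wild type, all at background. The bound of Col1a1, 0.92 on the log2 scale, passed 2-fold with cyclic loess (1.22), median scaling (1.21) and a detection p-value limit of 0.05 (1.41), and was 0.37 without background correction.

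Sparc, which encodes a collagen-binding glycoprotein also stored in platelets, had 3 probes detected in PirBTM and 0 in wild type. The brightest read 993.7 in PirBTM and 145.9 in wild type, at least 12.4-fold. The next read 447.6 in PirBTM and 141.5 in wild type, at least 4.36-fold, and the dimmest read 193.3 in PirBTM and 139.9 in wild type, too close to background for a bound. On the log2 scale the bound of the brightest was 3.63, or 2.25 without background correction, and the mean of the 3 probes gave 1.84. Ibsp, bone sialoprotein of osteoblasts, also had all 3 probes detected in PirBTM only. They read 399.4, 270.6 and 213.5 in PirBTM against 147.6, 139.2 and 127.5 in wild type, with bounds of at least 3.69-fold, at least 1.88-fold and at least 1.11-fold. The Ibsp signal was weak, and its bound by the brightest probe was under 2-fold in the authors' deposited values (0.87 on the log2 scale) without background correction (0.91) and with the mean of the 3 probes (0.98).

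Ebf3, the transcription factor of CXCL12-rich reticular cells, had 1 probe that read 726.7 in PirBTM and 162.9 in wild type. Its detection p-value in wild type was 0.0449, above the limit of 0.01 used here and under the alternative limit of 0.05. The bound of Ebf3 was at least 8.51-fold, 3.09 on the log2 scale and 1.80 without background correction. Its other probe read 182.6 in PirBTM (detection p-value 0.0278) and 141.0 in wild type and was not detected on either array. Lepr, the leptin receptor that marks these cells, was not detected by either probe. The probes of Lepr read 165.6 and 125.9 in PirBTM and 144.2 and 120.2 in wild type. Of these 2 reticular cell genes, Ebf3 was thus detected in PirBTM and Lepr on neither array.

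**Figure D2:**
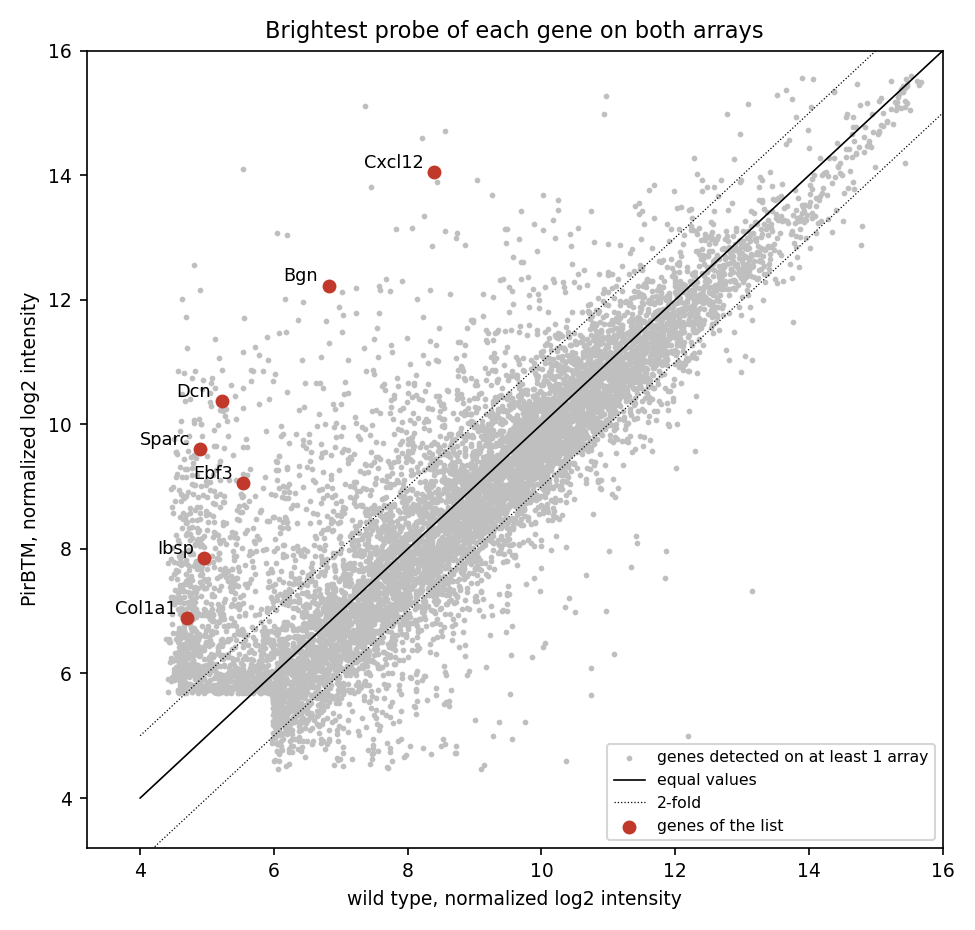
Normalized log2 intensity of the brightest probe of each of 9432 genes, PirBTM on the vertical axis and wild type on the horizontal axis, with equal values as a solid line and 2-fold differences dotted. The 7 detected genes of the list lie above the line, Cxcl12 (14.05 in PirBTM and 8.39 in wild type) and Bgn at the right and the 5 genes read in PirBTM only at the left.

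The genes nearest to Cxcl12 in the pair of log2 intensities over the 2 arrays were C1qb (distance 0.05) and C1qc (0.17), chains of complement C1q made by macrophages. H2-Ab1 (0.58), Ear3 (0.67) and Retnlg (0.68) came next. The nearest to Bgn were Mgp (0.23), which encodes the calcification inhibitor matrix Gla protein, Alas2 (0.38), the first enzyme of haem synthesis in red cells, and Sdc3 (0.41), Mrc1 (0.46) and Slamf9 (0.51). With 2 arrays such nearness says only that the 2 readings were alike.

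Other genes of matrix, bone and the stromal niche were taken from 6 further lists of 89 genes, 80 of them measured here. Of these, 44 were detected in PirBTM, of which 16 were detected in wild type as well and 28 were not, and 0 were detected in wild type alone. By ratio or bound 17 were at least 2-fold higher in PirBTM, 2 at least 2-fold lower and 25 in between. The 28 could differ only upward once filtered on detection, so these counts too describe the lists and support no direction.

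Among other collagens, 4 of 10 measured genes were detected, all on the PirBTM array, and 2 were at least 2-fold higher. Col5a1, a chain of the type V collagen that nucleates type I fibrils, read 1203.7 in PirBTM and 259.7 in wild type, 5.93-fold higher. Col6a1, of the microfibrillar type VI collagen, read 518.8 in PirBTM and 137.2 in wild type, at least 5.44-fold higher. Col8a1 had a bound of 1.84-fold, and Col16a1 lay too near background for one.

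Among enzymes and chaperones of collagen, 12 of 15 measured genes were detected in PirBTM and 6 in wild type. Of the 12, 3 were at least 2-fold higher and 0 lower; 1 of the 3, Lox, was short of 2-fold without background correction (bound 0.94 on the log2 scale). The collagen chaperone Serpinh1 read 649.3 in PirBTM and 155.9 in wild type (at least 7.34-fold), and the crosslinking enzyme Loxl1 read 532.0 in PirBTM and 141.6 in wild type (at least 5.64-fold). The lowest were enzymes that many secretory cells use: P4hb, protein disulphide isomerase and a subunit of prolyl hydroxylase, read 12243.3 in PirBTM and 17028.2 in wild type (log2 ratio -0.60), and the lysyl hydroxylase Plod1 had a log2 ratio of -0.15, which turned positive with cyclic loess (0.14) and median scaling (0.10).

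Among other proteoglycans and glycoproteins, 7 of 17 measured genes were detected and 5 of them at least 2-fold higher, of which Tnc (bound 0.94 on the log2 scale) and Ogn (0.66) were short of it without background correction. Mgp read 4886.1 in PirBTM and 230.6 in wild type, 34.2-fold higher, and Prelp, a leucine-rich proteoglycan, read 1062.6 in PirBTM and 137.1 in wild type, at least 13.4-fold higher. Fibulin 1 (Fbln1) read 234.9 in PirBTM and 171.2 in wild type, with a bound of 0.48 on the log2 scale by that probe. Another of its detected probes differed the other way, by a measured log2 difference of -0.52, any value at background taken as measured. Vcan lay too near background for a bound. The fibroblast genes Lum, Postn and Fmod were among the 10 genes not detected on either array.

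Of 10 basement membrane genes, 6 were detected and 1 was at least 2-fold higher, the type IV collagen chain Col4a2, which read 445.1 in PirBTM and 156.4 in wild type (at least 4.33-fold). Lamc1, a laminin chain, had a bound of 1.96-fold. Nid2 had a log2 ratio of 0.47 and Col4a1, the partner chain of Col4a2, one of -0.56 (-0.32 with cyclic loess), both smaller than 0.59, which is 2 measuring SD. Osteoblast and bone matrix genes were almost unread: of 12 measured genes, 1 was detected, Alpl, the alkaline phosphatase of osteoblasts, at 226.8 in PirBTM and 171.2 in wild type (at least 1.29-fold). The osteoblast factor Sp7, osteocalcin (Bglap) and the osteocyte gene Sost were not detected on either array.

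Reticular and niche factors had 14 of 16 genes detected in PirBTM and 5 in wild type. Of the 14, 6 passed 2-fold upward and 2 downward. Igfbp5, which binds insulin-like growth factors, read 9607.7 in PirBTM and 349.1 in wild type, 34.1-fold higher. Gas6, a ligand of TAM receptors, read 1932.4 in PirBTM and 166.3 in wild type, at least 26.5-fold higher. The opposite was measured for Angpt1, a ligand of the TIE2 receptor also made by stem cells, which read 193.2 in PirBTM and 320.2 in wild type (4.38-fold lower), and for Pdgfrb, which read 230.3 in PirBTM and 278.4 in wild type (2.22-fold lower). In the authors' deposited values the log2 ratio of Angpt1, -2.13 as reported, was -0.94, and that of Pdgfrb, -1.15 as reported, was -0.54. Pdgfrb was also short of 2-fold with cyclic loess (-0.86). Kitl, stem cell factor, was not detected on either array.

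Cxcr4, the receptor of CXCL12 on blood and leukaemic cells, read 2884.6 in PirBTM and 3667.7 in wild type. Its log2 ratio of -0.55 (-0.31 with cyclic loess) was smaller in size than 0.59, which is 2 measuring SD. Ackr3, the scavenging receptor, was not detected. Of 8 genes in this list, 7 were detected and 3 at least 2-fold higher. These were Mmp14 (at least 17.9-fold), Mmp9 (8.53-fold) and Dpp4 (2.98-fold), peptidases able to trim the chemokine. The neutrophil protease Ctsg had a log2 ratio of -0.28, or 0.04 with cyclic loess. Of 8 measured collagen receptors, 5 were detected and 0 were at least 2-fold higher. Lair1, an inhibitory receptor for collagen on leukocytes, had a log2 ratio of 0.91 and Itgb1, a subunit of collagen-binding integrins, one of 0.52. Itga1 read 197.7 in PirBTM and 289.7 in wild type (3.50-fold lower; log2 ratio -1.81, or -0.83 without background correction), and Itga11 lay too near background for a bound.

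**Figure D3:**
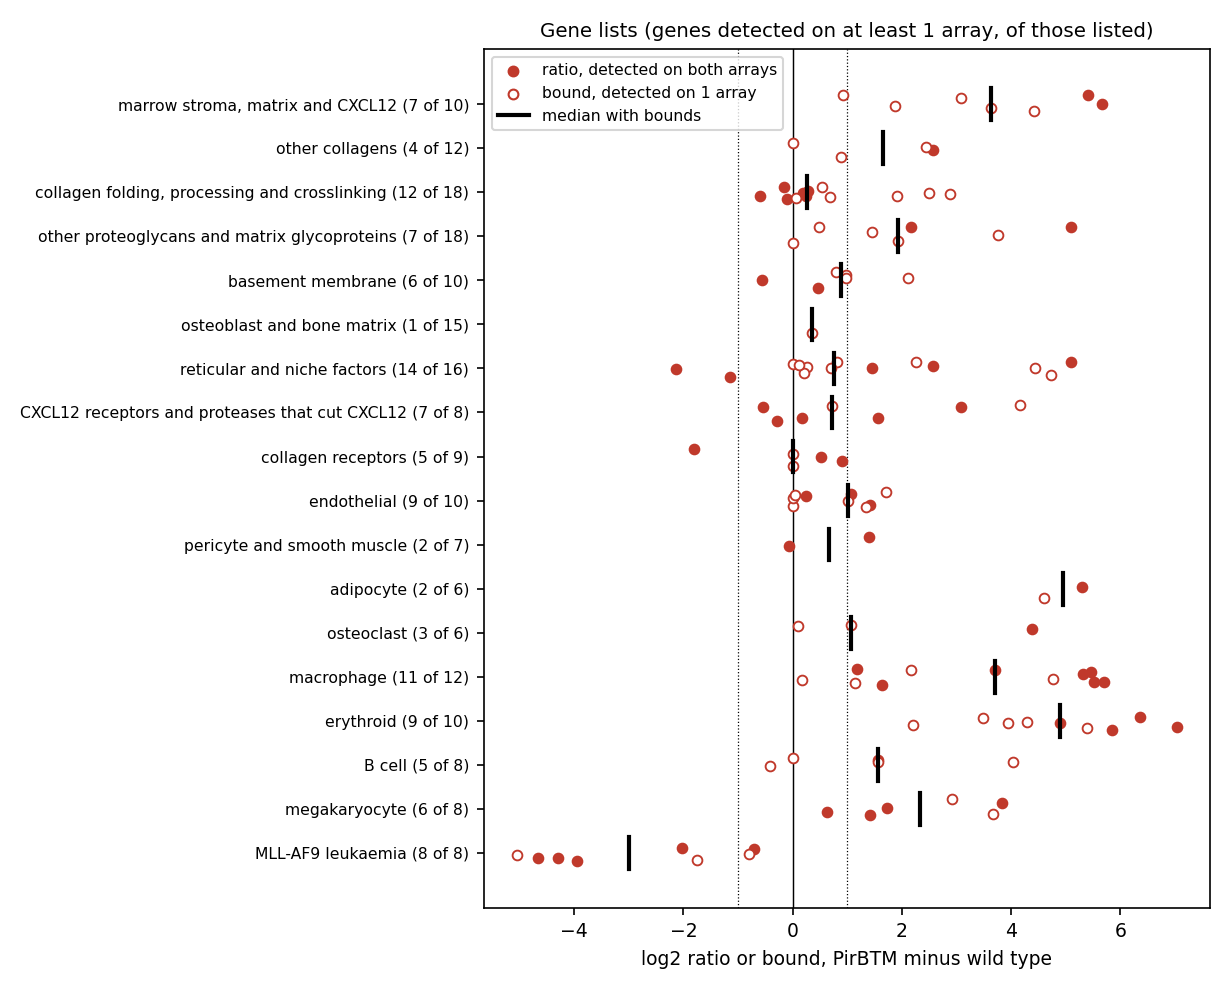
Log2 ratio (filled) or bound (open) of each gene detected on at least 1 array, PirBTM minus wild type, by gene list, with a black bar at the median with bounds and dotted lines at 2-fold; genes too near background for a bound are drawn at 0. An open point lies on the side of the array that detected the gene by construction. Cxcl12 (5.66) and Bgn (5.41) are the 2 filled points of the top row, and the 8 genes of the MLL-AF9 list lie to the left of 0.

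The summed signal of each marker list of other stromal cells and of osteoclasts was also higher in PirBTM, and the part of these cells in the differences was not tested. A sum is carried by the brightest genes of its list, mainly Acta2 for pericytes and Ctsk for osteoclasts. It does not show that every gene of a list was higher. In these lists and the blood cell lists below, a gene detected in PirBTM only had its direction fixed by the detection filter. Endothelial markers were detected for 9 of 10 genes in PirBTM and 3 in wild type, with summed normalized intensities of 1814 in PirBTM and 949 in wild type. Pecam1, the brightest of them, read 801.5 in PirBTM and 568.2 in wild type, a log2 ratio of 0.25. Of the 9, 6 were detected in PirBTM only. By ratio or bound, 5 of the 9 passed 2-fold: Stab2 of sinusoids (at least 3.27-fold), Vwf (2.67-fold), Esam (at least 2.56-fold), Eng (2.09-fold) and Plvap (at least 2.03-fold). Without background correction all 5 fell short of it. Bounds on the log2 scale were then 0.81 for Stab2, 0.6 for Esam and 0.42 for Plvap, and log2 ratios 0.84 for Vwf and 0.55 for Eng. Cdh5 and Tek lay at the limit of detection, and Kdr was not detected. Pericyte and smooth muscle markers summed to 433 in PirBTM and 297 in wild type, with 2 of 7 detected on each array. Acta2 was 2.65-fold higher (log2 ratio 1.40, or 0.70 without background correction). Mcam had a log2 ratio of -0.07 by its brightest probe, or 0.21 with cyclic loess. Its other detected probes gave measured log2 differences of 0.39 and 1.78, any value at background taken as measured. Myh11, Tagln, Rgs5, Cspg4 and Des were not detected. Of the adipocyte markers, Adipoq, an adipokine also made by reticular cells, was at least 24.3-fold higher. Pparg, also a macrophage factor, was 39.3-fold higher by its brightest probe, a log2 ratio of 5.30, or 3.90 without background correction. Another detected probe of Pparg gave a measured log2 difference of 2.88, any value at background taken as measured. Plin1, Cidec and Fabp4 were not detected on either array, and the 5 measured genes summed to 4450 in PirBTM and 178 in wild type. Osteoclast markers summed to 2459 in PirBTM and 282 in wild type, with 3 of 6 detected on the PirBTM array. The protease Ctsk was 20.8-fold higher and Acp5 at least 2.10-fold (0.45 on the log2 scale without background correction), Oscar had a bound of 1.07-fold, and Calcr, Ocstamp and Dcstamp were not detected.

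The summed signal of each of 4 blood cell lists was higher in PirBTM too, and their part was likewise not tested. Macrophage markers were detected for 11 of 12 genes in PirBTM and 7 in wild type, with summed intensities of 54509 in PirBTM and 5131 in wild type. C1qb was 52.1-fold and Mrc1 45.8-fold higher. The log2 ratio of Mrc1 was 5.52, or 4.26 without background correction. Siglec1 was at least 2.21-fold higher (0.49 on the log2 scale without background correction) and Timd4 at least 1.12-fold, which are lower limits and give no rank; Cd5l was not detected. Erythroid markers were detected for all 9 measured genes in PirBTM and 4 in wild type and summed to 36676 in PirBTM and 614 in wild type. Car1 was 130-fold and Slc4a1 82.3-fold higher, and Hemgn at least 11.2-fold and Epor at least 4.61-fold. Car1 read 178.1 in wild type, near the limit of detection. Without background correction its log2 ratio of 7.03 was 5.49, and that of Slc4a1, 6.36 as reported, was 5.58. Megakaryocyte markers were detected for 6 of 6 measured genes in PirBTM and 4 in wild type and summed to 3333 in PirBTM and 565 in wild type. Pf4 was 14.2-fold, Tubb1 at least 12.7-fold and Gp9 2.68-fold higher (Gp9 had a log2 ratio of 0.83 without background correction), and Itga2b had a log2 ratio of 0.63. B cell markers summed to 6204 in PirBTM and 1851 in wild type, with 4 of 6 measured genes detected in PirBTM and 2 in wild type. Cd79b, the brightest of these and the only gene detected on both arrays, was 2.95-fold higher and carried most of both sums. Pou2af1 was at least 16.5-fold and Ms4a1 at least 2.96-fold higher (Ms4a1 0.72 on the log2 scale without background correction); Igll1 lay too near background for a bound, Vpreb1 was detected in wild type only (bound of -0.42 on the log2 scale), and Pax5 on neither array.

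Markers of the MLL-AF9 programme gave less signal in PirBTM. All 8 MLL-AF9 genes were detected in wild type and 5 in PirBTM, and they summed to 2665 in PirBTM and 13122 in wild type. Of the 8, 6 were at least 2-fold lower in PirBTM and 0 higher, where 9.63% of all detected genes were lower by as much. Hoxa5, Hoxa10 and Mecom were detected in wild type only, so their direction was fixed by the detection filter. The counts therefore describe the list and support no direction. Hoxa10, 1 of the 6, had a bound of -1.75 on the log2 scale, or -0.75 without background correction. Hoxa5 was at least 33.2-fold and Hoxa9 25.3-fold lower, while Kit had a log2 ratio of -0.71 and Mecom a bound of 1.75-fold lower. The detected genes of the stromal list were brighter in PirBTM, where the leukaemia list gave less summed signal. The lists of other stromal cells, osteoclasts, macrophages, red cells, megakaryocytes and B cells gave more there. How these differences relate to each other was not tested.

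**Figure D4:**
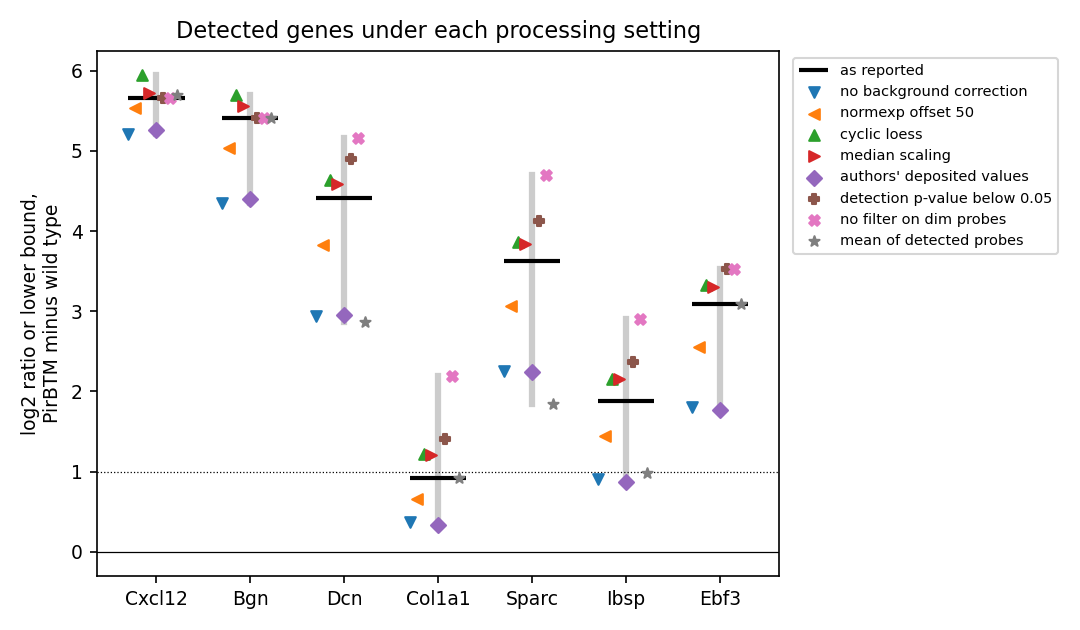
Log2 ratio or bound, PirBTM minus wild type, of the 7 genes detected under 9 settings; the black bar is the value as reported, symbols are the alternatives, and the dotted line is 2-fold. Cxcl12 spans 5.21 to 5.95 and Bgn 4.35 to 5.69, while Col1a1 (0.34 to 2.19) and Ibsp (0.87 to 2.90) cross the dotted line.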

How the data were processed

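Total RNA of 1 PirBTM and 1 wild-type sample was read on 2 positions of 1 Illumina BeadChip, by the array names in the labels, so position and genotype cannot be told apart. Column-cleaned Trizol RNA was amplified to biotinylated cRNA, per the labels' protocols. Of 45281 probes the authors deposited, per the file headers, the linear scanner intensity and detection p-value on each array; medians of 161.3 in PirBTM and 148.2 in wild type show no normalization between arrays. Their series table, linear intensities with matched distributions, served as an alternative. No source used here names the software.

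Background was corrected with limma 3.58.1 (nec, offset 16, negative controls inferred from detection p-values), then quantile normalized and taken to log2; the script was tested on simulated data. The annotation named 1 gene for 34885 probes, several for 18, and left 10378 unnamed. A gene was read by its brightest probe. Probes above background numbered 16392 in PirBTM and 15137 in wild type; the number of arrays limits precision. The genes, the lists and the naming rule (all listed genes; the 2 highest and 2 lowest of each other list; the 5 nearest genes to Cxcl12 and Bgn) were chosen with earlier results of these data known, and other genes are named as examples after their values were seen. Of 181 entries in the 17 other lists, 165 were measured; the rest were not analysed here. For background, normalization, detection limit and probe rule, 8 alternatives were run.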

Additional observations from a re-analysis of the deposited data

How the results depend on the processing

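None of the 7 detected genes of the list changed direction under any of the 8 alternatives, and 0 were at least 2-fold lower in each; for Col1a2, Col3a1 and Lepr no single value was recomputed. The direction of the 5 genes detected in PirBTM only is fixed by the detection filter. The count at least 2-fold higher, 6 as reported, was 5 in the authors' deposited values, with no background correction and with the mean of detected probes, where Ibsp dropped out, and 7 with cyclic loess, median scaling, a detection p-value below 0.05 or no filter, where Col1a1 entered. The median log2 ratio of the 7 genes, 4.70 with wild-type values at background taken as measured, was 2.58 with no background correction, 2.53 in the authors' deposited values, 3.67 with an offset of 50, 3.52 with the mean of detected probes and 3.21 over all 10 genes with no filter. With bounds it was 3.63, and 2.25, 2.24, 3.07, 2.87 and 3.21 under the same settings, and 4.12 at a detection p-value below 0.05; an unsubtracted background shrinks ratios of dim probes by construction, and a higher detection limit lowers the value a bound is set against. Of 56 recomputed values of single genes, 32 moved by more than the measuring SD of 0.30 and 0 turned. The widest ranges were those of Sparc (1.84 to 4.70), Dcn (2.87 to 5.16) and Ibsp (0.87 to 2.90). Over the 6 further matrix, bone and niche lists, recomputed under the same alternatives after seeing the data, 17 genes were at least 2-fold higher as reported and 14 to 25 under 7 of the alternatives, and 31 with no filter; the 2 lower genes numbered 0 with no background correction and in the authors' deposited values, and 1 with an offset of 50, cyclic loess or median scaling. Genes above background in wild type numbered 3 rather than 2 at a detection p-value below 0.05. No paired analysis was possible because each group had 1 array. For 8 of the 10 genes the wild-type signal was at background, so the size of their difference has only a lower limit or none.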
